A study of Homo sapiens with 12 samples.

Results

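MYLIP and 6 genes of the cholesterol traffic that liver X receptors (LXRs) steer were followed here: MYLIP, ABCA1, ABCG1, SREBF1, LPCAT3, NR1H2 and NR1H3. They are 7 of the 60641 gene symbols in the count table and were taken by symbol. The set was chosen by a measured value, the high level of MYLIP in cells given 1,2-DHN, so that level is described and not tested. The other 6 were added for their known roles, with earlier results of these data known. All libraries came from SRA01/04, an immortalised human lens epithelial cell line, and were made 24 hours after treatment. The 4 groups, of 3 libraries each, were cells given neither compound (NC), cells given asparagine, an amino acid (NC-A), cells given 1,2-DHN, a naphthalene metabolite, without asparagine (DHN), and cells given both (DHN-A). The labels state no doses, no order of addition and no origin of the replicates, so the spread behind each p-value is that among these libraries and may be technical. The series sets asparagine against naphthalene-induced lens opacity, and the question here was whether the high MYLIP level came together with other LXR targets.

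LXRs are nuclear receptors that are switched on by oxysterols, oxidised forms of cholesterol, and bind DNA as partners of retinoid X receptors. NR1H3 encodes LXR alpha and NR1H2 encodes LXR beta. Among their best known target genes are the cholesterol exporters ABCA1 and ABCG1, the lipid synthesis regulator SREBF1 (SREBP-1), the phospholipid remodelling enzyme LPCAT3, and MYLIP. MYLIP, also called IDOL, is a ubiquitin ligase that marks lipoprotein receptors such as VLDLR and LRP8 for breakdown, so that less cholesterol is taken up.

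Total counts ran from 12381071 to 27526206 per library. Mean chi-square per gene between replicates was 1.74 to 4.24, so no pair agreed within counting noise. Of the 14 lens markers, PAX6, a transcription factor of eye development, was at 21.5 to 30.8 CPM (counts scaled to a common library size), the crystallin CRYAB at 0.372 to 12.1 CPM, the fibre gene BFSP1 at 3.39 to 5.67 and GJA3 at 1.18 to 2.79, whereas CRYAA, MIP and LIM2 had 1 to 6 counts in all 12 libraries together. The summed level of the lens markers was 32.6 to 34.0 CPM for NC, 30.6 to 33.0 for NC-A, 48.5 to 53.2 for DHN and 35.6 to 38.0 for DHN-A, and 5 of 14 had enough counts for a test. That of 10 fibroblast markers (8 tested) was 1703 to 1807 CPM for NC, 1496 to 1519 for NC-A, 959 to 1015 for DHN and 1451 to 1516 for DHN-A. That of 10 macrophage markers (4 tested) was 6.62 to 7.18, 6.31 to 6.59, 9.80 to 10.9 and 7.21 to 8.87 CPM in the same order. The 8 hepatocyte markers (1 tested, FGB at 0 in all libraries) summed to 53.9 to 60.6, 64.1 to 64.6, 35.7 to 43.6 and 61.7 to 63.3 CPM, and the 8 adipocyte markers (3 tested) to 7.23 to 9.998, 9.23 to 9.87, 6.76 to 8.95 and 7.96 to 10.5 CPM. Apart from the adipocyte sum, whose ranges overlapped, these sums stood apart in DHN. PAX6 and CRYAB had the widest ranges among the lens markers, so the lens sum need not speak for all 14. The part of these sums in the results below was not tested. In RNA from whole cultures, fewer cells of a type cannot be told apart from less RNA per cell.

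MYLIP lies on chromosome 6 from 16129125 to 16148248 (plus strand, GRCh38, GENCODE release 29) and shares no exon base with another annotated gene. The 250 bases before its RefSeq start (GRCh38.p14, plus strand, chr6:16128836-16129085) are shown because they are the stretch next to the gene that differed most among the 7. Capitals mark CCAAT boxes (searched as CCAAT on both strands) and GC boxes (GGGCGG, both strands):
MYLIP: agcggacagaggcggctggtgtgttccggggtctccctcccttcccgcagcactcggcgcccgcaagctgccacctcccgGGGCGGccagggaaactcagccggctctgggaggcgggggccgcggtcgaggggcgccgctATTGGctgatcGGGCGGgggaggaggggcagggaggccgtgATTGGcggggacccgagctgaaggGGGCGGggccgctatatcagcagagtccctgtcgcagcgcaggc
The window held 2 CCAAT boxes, starting 109 and 68 bases before the start, and 3 GC boxes. At least 1 CCAAT box was found in 32% of 35116 RefSeq promoter windows of the same length and at least 1 GC box in 42.6%. The LXR response element known as DR4 is a direct repeat of AGGTCA with 4 free bases between the copies, and it was searched on both strands with up to 2 mismatches. MYLIP had no such match in this window, ABCA1 had 1, and 2.03% of all windows had at least 1. The ABCA1 match is shown with 7 bases on each side (GRCh38.p14, minus strand, chr9:104928202-104928231), with the match in capitals, 69 to 54 bases before the RefSeq start:
ABCA1: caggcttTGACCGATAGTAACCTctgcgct
Read on the other strand the match is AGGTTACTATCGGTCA. Of the 6 members that matched the RefSeq promoter table (ABCG1 did not), ABCA1 was the 1 with a DR4 match. A heat shock element, searched on both strands as GAA, TTC and GAA with 2 free bases between them and 1 mismatch allowed, was found in NR1H2 and in 5.33% of all windows, and not in MYLIP. These are descriptions of letters in short windows and say nothing about binding or about sites outside the windows, which were not searched.

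MYLIP was low in every library but those of DHN. Its level was 0.434, 1.06 and 0.886 CPM in NC 1 to 3, from 7, 22 and 21 counts, and 0.664, 0.943 and 0.745 CPM in NC-A, from 9, 13 and 13 counts. In DHN it was 10.1, 12.6 and 12.6 CPM, from 126, 264 and 272 counts. In DHN-A it was 0.897, 1.56 and 1.197 CPM, from 25, 41 and 29 counts. All 3 DHN libraries stood above the other 9, and the lowest of them was 6.48-fold above the highest of the rest, DHN-A 2. The means were 0.794 ± 0.323 CPM for NC, 0.784 ± 0.143 for NC-A, 11.8 ± 1.42 for DHN and 1.22 ± 0.334 for DHN-A (± SD, n = 3 each). The mean of DHN was thus 14.8-fold that of NC and 9.65-fold that of DHN-A. On the log2 scale the fitted difference of DHN against NC was 3.84 ± 0.23 and that of DHN-A against DHN, which shares the DHN libraries, was -3.28 ± 0.21 (± SE, here and for all log2 changes). Of 17889 tested genes, 24 had a higher fitted change than MYLIP in DHN against NC and 25 had a lower one in DHN-A against DHN.

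**Figure D1:**
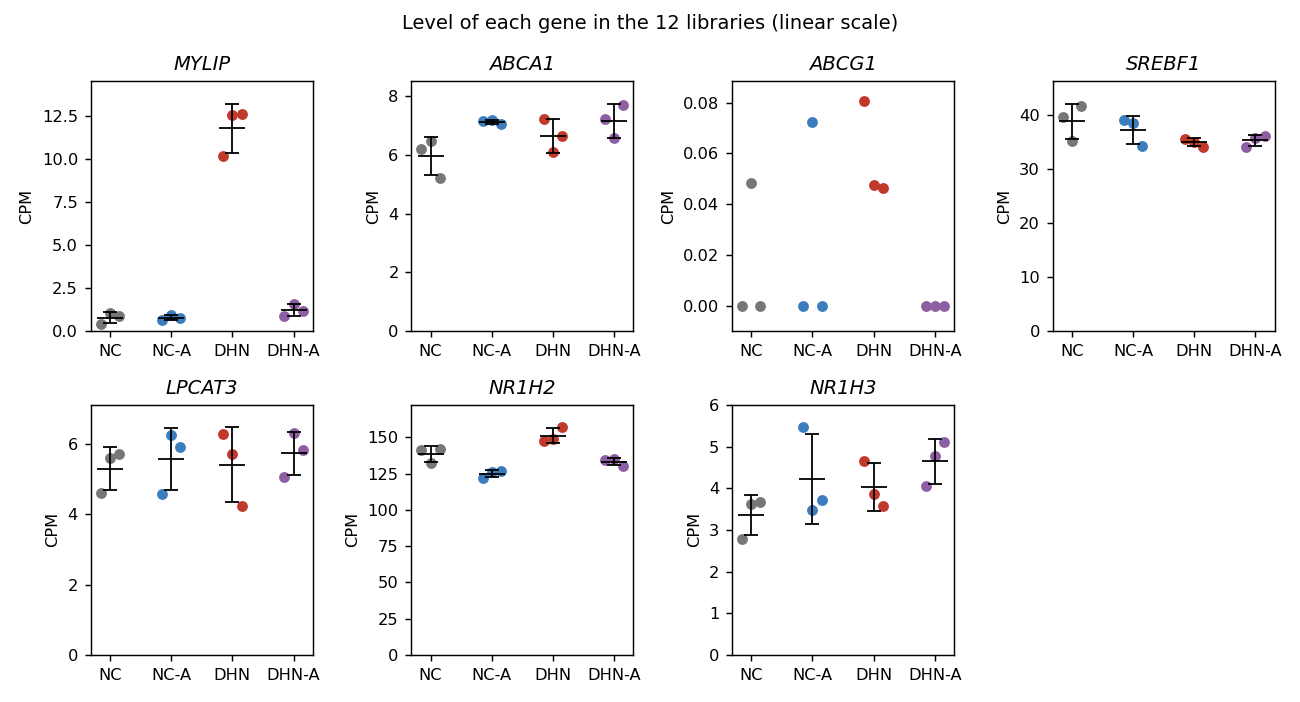
Level of the 7 genes in the 12 libraries. Each panel plots CPM on a linear axis against the group; points are libraries and bars are mean ± SD (none for ABCG1, which has 0 or 1 count per library). The MYLIP points of DHN lie at 10.1 to 12.6 CPM, above 0.434 to 1.56 in the other 9 libraries, while the groups of ABCA1, SREBF1, LPCAT3 and NR1H3 lie close together.

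With asparagine present in both groups, MYLIP did not pass the test. DHN-A against NC-A shares no library with the comparison from which MYLIP was picked. There its log2 change was 0.63 ± 0.30, with a 95% interval of 0.021 to 1.24, or 1.01-fold to 2.37-fold (edgeR adjusted p = 0.362, and 0.254 to 0.784 over 17 alternatives; unadjusted p = 0.0431). The groups overlapped, since DHN-A 1 at 0.897 CPM lay below NC-A 2 at 0.943. Asparagine alone gave a change of -0.065 ± 0.34 in NC-A against NC (edgeR adjusted p = 0.921), whose sign turned without NC 2 (0.168), NC 3 (0.0060) or NC-A 1 (0.023). DHN-A against NC gave 0.57 ± 0.28 (edgeR adjusted p = 0.153). The interaction, or the effect of 1,2-DHN with asparagine less its effect without, was -3.21 ± 0.42 for MYLIP; it contains the values that chose the gene and is given without a test. At 7 to 22 counts in the libraries of NC and NC-A, differences smaller than these intervals were not detectable at this depth.

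Of the cholesterol exporters, ABCA1 had overlapping levels in DHN and NC, and ABCG1 had too few counts to be tested. ABCA1, on chromosome 9 from 104781002 to 104928237, moves cholesterol and phospholipid onto apolipoproteins. Its level was 6.21, 6.46 and 5.23 CPM for NC, 7.16, 7.18 and 7.05 for NC-A, 7.24, 6.09 and 6.63 for DHN, and 7.21, 6.56 and 7.72 for DHN-A. The DHN libraries overlapped those of NC and those of DHN-A, and all 3 NC-A libraries lay above all 3 of NC. The log2 difference of DHN against NC was 0.15 ± 0.14. In NC-A against NC it was 0.26 ± 0.14, with a 95% interval of -0.023 to 0.55 (edgeR adjusted p = 0.202). Between DHN-A and NC-A it was 0.0064 ± 0.14, with an interval of -0.27 to 0.28 (edgeR adjusted p = 0.994), and its sign turned with limma-voom (-0.000430) or without DHN-A 3 (-0.0522). ABCG1, on chromosome 21 from 42199689 to 42297244, passes cholesterol on to high density lipoprotein. The 3 libraries of NC together had 1 count, those of NC-A 1, those of DHN 3 and those of DHN-A 0. There was never more than 1 in a library, so it was not tested and no fold is given. A count of 0, as in DHN-A, still allows an expected count of up to about 3, and the other totals allow more.

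The genes of lipid synthesis and membrane remodelling were also without a call in the fit of all 12 libraries. SREBF1, on chromosome 17 from 17810399 to 17837002, encodes a transcription factor of fatty acid and cholesterol synthesis. It was at 39.5, 35.2 and 41.6 CPM for NC, 39.0, 38.5 and 34.2 for NC-A, 35.6, 35.0 and 34.1 for DHN, and 34.1, 35.7 and 36.0 for DHN-A. DHN 2 and DHN 3 lay below all NC libraries, and DHN 1, at 35.6 CPM, lay just above the lowest of them, NC 2. The log2 difference of DHN against NC was -0.16 ± 0.067. In DHN-A against NC-A the change was -0.074 ± 0.067, with a 95% interval of -0.21 to 0.061 (edgeR adjusted p = 0.731). LPCAT3, on chromosome 12 from 6976186 to 7018510, loads polyunsaturated fatty acids into membrane phospholipids. It was at 4.59, 5.59 and 5.69 CPM for NC, 4.58, 6.24 and 5.91 for NC-A, 6.27, 5.71 and 4.22 for DHN, and 5.06, 6.30 and 5.82 for DHN-A. All 4 groups overlapped, and the spread within DHN (4.22 to 6.27) covered most of that across all 12 libraries (4.22 to 6.30). The log2 difference of DHN against NC was 0.00064 ± 0.17, a value whose sign turned in 11 of 18 alternatives, and that of DHN-A against NC-A was 0.033 ± 0.16, with an interval of -0.29 to 0.36 (edgeR adjusted p = 0.973). In GENCODE release 29, 65.6% of the exon bases of LPCAT3 overlap EMG1 on the opposite strand and 6.92% of those of SREBF1 overlap RAI1. Since the strand setting of the counting is not given, reads of such pairs may not have been told apart.

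Of the receptors themselves, LXR beta was the abundant form. NR1H2, on chromosome 19 from 50329653 to 50382982, was at 141, 132 and 142 CPM for NC, 122, 126 and 127 for NC-A, 147, 149 and 157 for DHN, and 134, 135 and 130 for DHN-A. The DHN libraries were the highest and the NC-A libraries the lowest, with no overlap between these groups and the rest. The differences were small beside that of MYLIP. The log2 difference of DHN against NC was 0.13 ± 0.042. NR1H2 fell by 0.18 ± 0.042 in DHN-A against DHN (edgeR adjusted p = 0.000341) and by 0.15 ± 0.043 in NC-A against NC (edgeR adjusted p = 0.0110), but the latter call was lost without NC 3 (0.0620) or NC-A 1 (0.0566). Its change between NC-A and DHN-A was 0.091 ± 0.043 (edgeR adjusted p = 0.339), with no overlap between the groups.

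NR1H3, on chromosome 11 from 47248300 to 47269032, was far lower. It was at 2.79, 3.62 and 3.67 CPM for NC, 5.46, 3.48 and 3.73 for NC-A, 4.67, 3.85 and 3.57 for DHN, and 4.06, 4.77 and 5.12 for DHN-A. NC-A 1 was the highest library of all 12, and all 3 DHN-A libraries lay above those of NC. No comparison of NR1H3 was called. The change in DHN-A against NC was 0.45 ± 0.18 (edgeR adjusted p = 0.0679, and 0.0498 without NC-A 1), and in DHN-A against NC-A it was 0.14 ± 0.18, with a 95% interval of -0.23 to 0.51 (edgeR adjusted p = 0.835). Per kilobase of gene length, the mean of NR1H2 was 35.0-fold that of NR1H3 in NC, 25.1-fold in NC-A, 31.8-fold in DHN and 24.3-fold in DHN-A.

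**Figure D2:**
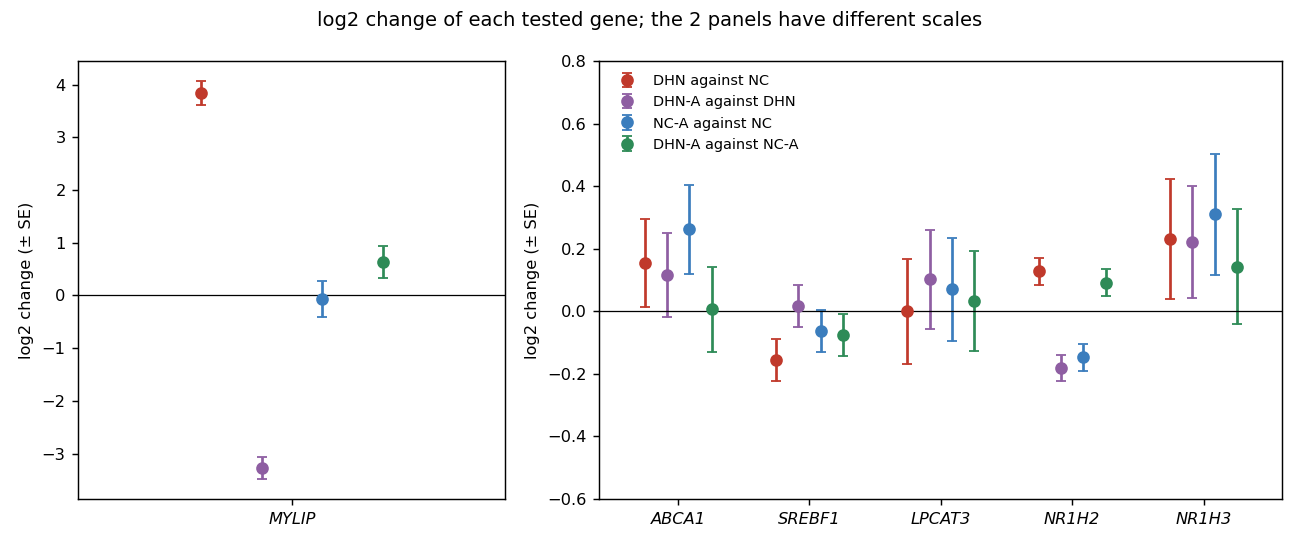
log2 change (± SE) of the 6 tested genes in 4 comparisons. The left panel shows MYLIP and the right panel the other 5 on an enlarged scale; the 2 axes differ. MYLIP lies at 3.84 for DHN against NC and at -3.28 for DHN-A against DHN, while every change of the other 5 in these comparisons lies between -0.18 and 0.31.

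Counted over the 6 tested members, 2 (MYLIP and NR1H2) were called in DHN against NC, where edgeR called 38.7% of all tested genes and the libraries of the groups did not overlap for 46.2%. That count includes the gene that defined the set, so nothing is read from it. It fell to 1 without DHN 3 or with no filter on low counts, and without NC 2 the 2 were MYLIP and SREBF1 (-0.22), with NR1H2 not called. In DHN-A against DHN the same 2 were called lower, where 41.7% of all genes were called and 51.3% had groups without overlap; for MYLIP that call rests on the DHN values that chose it and is no test. In NC-A against NC 1 was called, NR1H2, against 20.2%; 2 of 6 had groups without overlap, against 33.7%. Between DHN-A and NC-A edgeR called 0 of 6, against 2.1%; MYLIP and NR1H2 had an unadjusted p under 0.05, limma-voom called 0 of 6, DESeq2 called 0 of the 2 to which it gave an adjusted p (SREBF1 and NR1H2), and 1 of 6 had groups without overlap, against 18.4%. In DHN-A against NC edgeR called 0 of 6, against 21.1%, with 3 at an unadjusted p under 0.05 and 0 calls by DESeq2 and by limma-voom; 2 of 6 had groups without overlap, against 35%. The count of calls became 1 without NC 2 (SREBF1) or NC-A 1 (NR1H3). In the interaction, where 25.7% of all genes were called, the 1 call among the 6 was MYLIP, which again rests on the values that chose it and is no test. Without MYLIP, the median log2 change of the members was 0.13 for DHN against NC, 0.10 for DHN-A against DHN, 0.070 for NC-A against NC and 0.033 for DHN-A against NC-A, beside medians of 0.0073, 0.0091, 0.0031 and 0.0030 over all tested genes.

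Set side by side per kilobase of gene length (RPKM, CPM divided by the length), the order of the members changed at MYLIP alone among the 6 tested genes. In NC the order of mean levels was NR1H2 at 25.9 RPKM, SREBF1 at 4.71, LPCAT3 at 1.13, NR1H3 at 0.741, ABCA1 at 0.530, MYLIP at 0.258 and ABCG1 at 0.0026. In DHN, MYLIP moved to the third place at 3.83 RPKM (3.30 to 4.11), just under SREBF1 at 4.23 (4.14 to 4.31), and in NC-A and DHN-A it was sixth again, at 0.255 and 0.397. LPCAT3 and NR1H3 were neighbours whose libraries overlapped in NC-A, DHN and DHN-A. All other neighbours in each order had libraries that did not overlap. The lengths are those of the deposited table; for NR1H2 it gives 5341 bases where GENCODE release 29 has 3753 exon bases, so the level of NR1H2 per kilobase depends on the annotation.

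The 8 genes whose pattern was most like that of MYLIP are described next. Likeness was measured as the root mean square difference from MYLIP over the 4 group means of log2 CPM, each gene centred on its own mean, among named genes with at least 50 counts on average over all 12 libraries, which genes high in DHN can reach through DHN. It is a description over 4 groups that rests on the DHN level by which MYLIP was chosen, and it carries no test. RASD1, a small GTPase, was nearest among the genes that qualified, at 0.14, and ranked 3 of all 17888. Its mean was 1.34 ± 0.134 CPM for NC, 1.42 ± 0.337 for NC-A, 24.4 ± 2.43 for DHN and 2.00 ± 0.198 for DHN-A. SNAI1, a repressor of epithelial genes, followed at 0.19, with 3.16 ± 0.727, 2.755 ± 0.345, 31.0 ± 1.97 and 3.65 ± 0.156 CPM in the same order. Next came HSPA1B, an inducible HSP70 chaperone (0.34), FOS (0.40) and FOSB (0.45), both AP-1 transcription factors, ALOXE3, a lipoxygenase of the epidermis (0.53), GADD45B, a stress-inducible growth arrest gene (0.58), and TENT5C, a poly(A) polymerase (0.63). HSPA1B has a near-identical neighbour, HSPA1A, so its counts are uncertain. By the same measure NR1H2 was at 1.49 and ranked 4812 of 17888 genes, NR1H3 at 1.56, ABCA1 at 1.57, LPCAT3 at 1.58 and SREBF1 at 1.61, with ranks up to 10808. Of the 8 near genes, 7 matched the promoter table (SNAI1 did not); 0 of 7 had a DR4 match, and 1, HSPA1B, had a heat shock element by the searches given above.

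**Figure D3:**
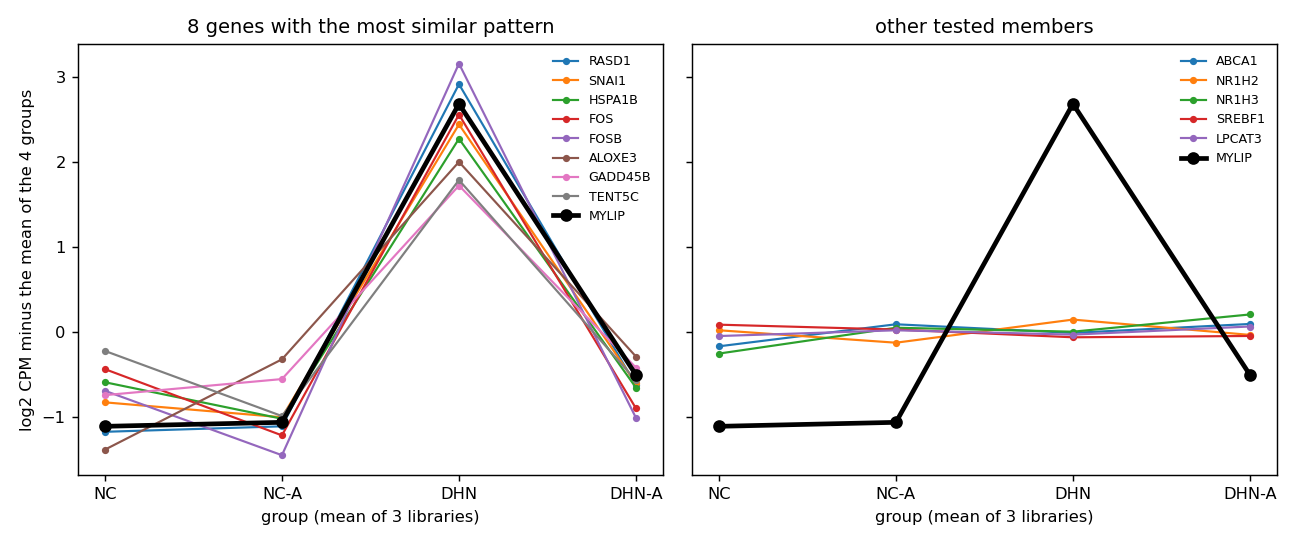
Group means of log2 CPM, each gene centred on the mean of its 4 groups, for NC, NC-A, DHN and DHN-A (3 libraries each). The thick black line is MYLIP. On the left the 8 most similar genes peak in DHN as MYLIP does, with RASD1 nearest (0.14); on the right the other 5 tested members stay near 0, on the same axis.

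Other known LXR targets were counted from a list of 17 genes, 12 of them tested. In DHN against NC, 0 of 12 rose and 3 fell by edgeR, where 19.7% of all tested genes rose and 19% fell. None of the 12 rose at an unadjusted p under 0.05, and DESeq2 and limma-voom also called 0 higher. Their median log2 change was -0.0055, beside 0.0073 for all genes. Among those that fell were SCD, which desaturates fatty acids (-0.76 ± 0.043), and FASN, fatty acid synthase (-0.13 ± 0.042). SCD was named for its call in DHN-A against NC-A, and FASN after its values were seen. The call of FASN was lost without NC 1 (edgeR adjusted p = 0.105) or DHN 2 (0.118). In DHN-A against DHN 3 of 12 rose and 0 fell, where 20.9% of all genes rose and 20.8% fell; SCD and ABCG4 were among the 3, and DESeq2 called 2. None fell at an unadjusted p under 0.05 or by DESeq2 or limma-voom. In NC-A against NC 1 rose (PLTP) and 2 fell (SCD and FASN), against 9.32% and 10.9%; without NC 1 or NC-A 2 the count that rose was 0. Between DHN-A and NC-A 0 rose and 1 fell, SCD, against 0.805% and 1.29%; 2 were higher at an unadjusted p under 0.05, limma-voom called 0 higher, and DESeq2 called 0 higher of the 4 to which it gave an adjusted p. The farthest above 0 there was ABCG4, a sterol transporter, at 1.55 ± 0.55 (edgeR adjusted p = 0.1505). The mean level of ABCG4 was only 0.575 CPM for NC, 0.256 for NC-A, 0.294 for DHN and 0.789 for DHN-A. SCD was at 148, 153 and 148 CPM for NC, 123, 117 and 119 for NC-A, 87.5, 87.2 and 91.2 for DHN, and 104, 103 and 105 for DHN-A. No 2 of its groups overlapped, and its fall of 0.20 ± 0.043 in DHN-A against NC-A passed the test (edgeR adjusted p = 0.00408), though not with no filter on low counts (0.0611). Of the other 5 listed targets, ABCG5, ABCG8, APOC1, APOC2 and APOC4 had 0 to 10 counts per library and were not tested. Among the 12 tested, ABCG4, CETP, LPL and MLXIPL were low, with means of 0.484 to 1.14 CPM in NC. Their SE in DHN against NC was 0.38 to 0.54, so only large changes of these genes could be seen.

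The lipoprotein receptors that MYLIP is known to mark for breakdown were measured here as RNA, whereas MYLIP acts on their proteins. Of a list of 13 receptors and MYLIP partners, 12 were tested. In DHN against NC 3 rose and 6 fell, where 19.7% of all tested genes rose and 19% fell, and in DHN-A against DHN 5 rose and 3 fell, against 20.9% and 20.8%. VLDLR, a receptor for triglyceride-rich lipoproteins, was at 20.9, 20.9 and 20.6 CPM for NC, 21.3, 22.7 and 24.1 for NC-A, 10.1, 10.99 and 10.6 for DHN, and 14.4, 13.97 and 18.4 for DHN-A. The DHN libraries were the lowest and those of DHN-A lay between DHN and the other groups, without overlap. VLDLR fell by 0.97 ± 0.098 in DHN against NC (edgeR adjusted p = 1.65e-11), rose by 0.55 ± 0.098 in DHN-A against DHN (7.72e-06) and fell by 0.55 ± 0.091 in DHN-A against NC-A (0.000109).

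LRP8, the apolipoprotein E receptor 2, was at 115, 116 and 117 CPM for NC, 92.8, 91.4 and 93.8 for NC-A, 80.6, 82.0 and 78.5 for DHN, and 92.8, 97.5 and 92.7 for DHN-A, and fell by 0.53 ± 0.044 in DHN against NC (edgeR adjusted p = 6.81e-14). Its DHN libraries were the lowest, and those of NC-A and DHN-A overlapped. The 4 UBE2D genes, whose products are ubiquitin-conjugating enzymes, differed among themselves. UBE2D1 rose by 0.60 ± 0.068 and UBE2D3 by 0.29 ± 0.040 in DHN against NC, and both fell in DHN-A against DHN, by 0.75 ± 0.067 and 0.39 ± 0.040. UBE2D2 was at 0.011 ± 0.044 in DHN against NC (edgeR adjusted p = 0.880). UBE2D4 was at -0.16 ± 0.084 there (0.138) and rose by 0.32 ± 0.081 in DHN-A against DHN (0.00125). USP2, a deubiquitinase of MYLIP, rose by 0.65 ± 0.25 (edgeR adjusted p = 0.0329), though not by DESeq2 (0.0651), with no filter on low counts (0.0931), or without NC 1 (0.0786), NC 2 (0.0901) or DHN 3 (0.187). In GENCODE release 29, 7.9% of the exon bases of VLDLR and 10.3% of those of LRP8 overlap genes on the opposite strand. LRP8, the UBE2D genes and USP2 were named after their values were seen.

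**Figure D4:**
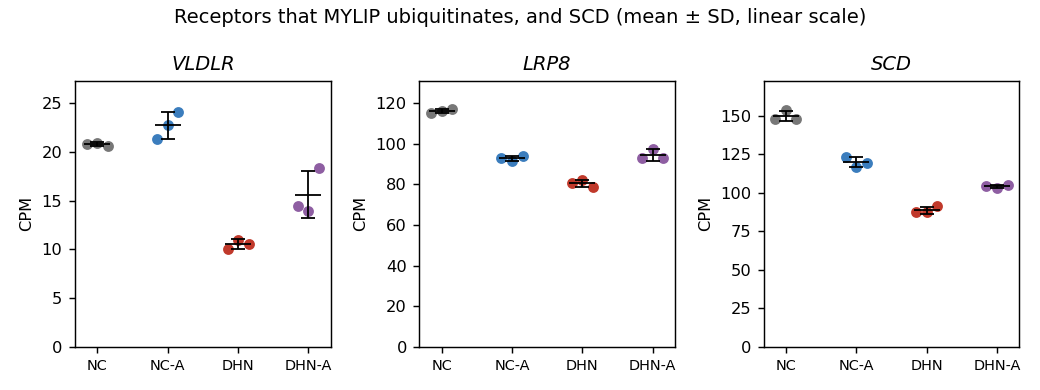
Levels of VLDLR, LRP8 and SCD in the 12 libraries. Each panel plots CPM on a linear axis from 0 against the group; points are libraries and bars are mean ± SD (n = 3). In all 3 genes the DHN libraries are the lowest, for VLDLR at 10.1 to 10.99 CPM against 20.6 to 20.9 in NC.

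The other lists are given for DHN against NC, where 19.7% of all tested genes rose and 19% fell. Of 20 LXR partners and coregulators, 18 were tested, and 4 rose and 6 fell, with a median log2 change of 0.051. Of 12 genes that make or remove oxysterols, 7 were tested, and 0 rose by edgeR (0 also at an unadjusted p under 0.05, and by DESeq2 and limma-voom) and 4 fell, with HSD3B7, a sterol dehydrogenase, at -1.09 ± 0.29 (edgeR adjusted p = 0.00195); CYP7B1 had no count in any library. Of 14 genes of SREBP control and cholesterol synthesis 1 rose and 9 fell, with INSIG2, which holds SREBPs in the endoplasmic reticulum, at -0.74 ± 0.087. Of 17 genes of intracellular cholesterol transport and storage 15 were tested, of which 2 rose and 7 fell; the count that rose was 1 in 15 of 18 alternatives. Of 12 other ABCA and ABCG transporters 8 were tested, of which 1 rose (0 in 8 of 18 alternatives, DESeq2 and limma-voom included) and 3 fell, among them ABCA3, a lipid transporter (-1.06 ± 0.068), and ABCA2 (-0.82 ± 0.066). Of 13 other genes of phospholipid remodelling 0 rose by edgeR, DESeq2 or limma-voom (0 by edgeR at an unadjusted p under 0.05; 1 called without NC 3 or DHN 1) and 5 fell by edgeR. Of the 99 tested genes of the 8 lists, 3 were called between DHN-A and NC-A, where 2.1% of all genes were called: SCD, VLDLR and PLA2G4A, a phospholipase that releases arachidonic acid. PLA2G4A was at 12.9, 13.7 and 12.1 CPM for NC, 7.97, 9.29 and 8.49 for NC-A, 11.2, 12.8 and 13.1 for DHN, and 11.2, 12.1 and 12.7 for DHN-A. Its NC-A libraries were below all others, and it rose by 0.48 ± 0.11 in DHN-A against NC-A (edgeR adjusted p = 0.00774; 0.0565 without NC-A 1 and 0.0585 without NC-A 3).

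**Figure D5:**
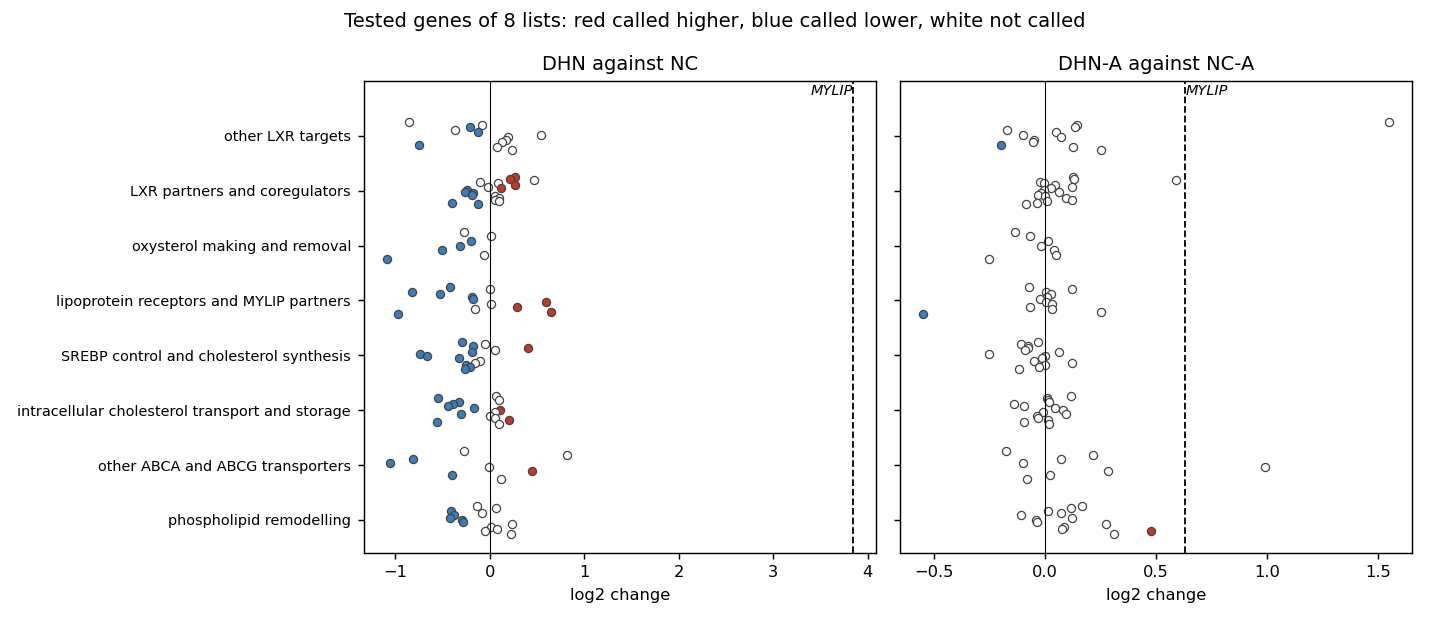
log2 change of the tested genes of 8 lists in DHN against NC (left) and DHN-A against NC-A (right), 1 point per gene and 1 row per list; red points were called higher, blue called lower and white not called (edgeR, adjusted p under 0.05). The dashed line is MYLIP, at 3.84 on the left, beyond every other point, and at 0.63 on the right. There ABCG4 at 1.55 and ABCA4 at 0.99 lie beyond it without a call, both with low group means of 0.256 to 0.904 CPM. The 2 horizontal axes differ.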

How the data were processed

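The 12 SRA01/04 libraries were made with a stranded kit, per the labels. What the authors deposited is 1 table of unnormalised counts by gene symbol, with gene lengths. The submitters' processing notes name hg38 and Bowtie. The counting tool, its strand setting, its annotation and the doses are not stated there or in the labels. Groups were taken from the library titles. Genes passing edgeR's filter on low counts (17889 of 60641) were fitted in 1 quasi-likelihood model over the 4 groups (edgeR 4.0.16, R 4.3.3, TMM factors), with Benjamini-Hochberg adjustment over all tested genes and a threshold of 0.05. There were 6 comparisons. CPM and RPKM were computed here from the deposited counts and lengths. Standard errors were derived from each fold change and its test and are approximate for large changes; 95% intervals use them. The pattern measure used log2 CPM with a prior count of 2.

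The members and the 8 gene lists were chosen with earlier results of these data known. All 7 members are named, as are up to 3 members of each list with the smallest p among those called in DHN-A against NC-A, and the 8 genes most like MYLIP; all other genes were named after their values were seen. The procedure was tested on simulated data. The alternatives tried were DESeq2 1.42.0, limma-voom (limma 3.58.1), factors by relative log expression, no filter, only the groups compared, the replicate number as a block, and each library left out in turn. Gene positions come from GENCODE release 29 and promoter windows from RefSeq (GRCh38.p14), matched by symbol for 6 of 7 members. Some genes of the lists are counted but not reported here by name.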

Additional observations from a re-analysis of the deposited data

Results flagged for a closer look

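The effect of 1,2-DHN on MYLIP differed with asparagine. On the log2 scale its effect was 3.84 without asparagine and 0.63 with it, and the interaction term, -3.21, marked MYLIP for a closer look. MYLIP was picked for its high level in DHN, which is part of this difference, so it is no independent evidence.
For 4 named genes of the lists the interaction was of the opposite sign to that of MYLIP, and others not named here shared that sign. Called with it were 4 of 12 other LXR targets, 4 of 18 LXR partners and coregulators and 2 of 7 oxysterol genes. So were 5 of 12 receptors and MYLIP partners, 7 of 14 synthesis genes and 7 of 15 transport genes. The rest were 3 of 8 transporters and 5 of 13 remodelling genes. Called with the sign of MYLIP were 1 LXR partner or coregulator, 2 receptors or MYLIP partners and 1 synthesis gene. The log2 effect of 1,2-DHN was higher with asparagine than without by 0.56 ± 0.060 for SCD, 0.56 ± 0.063 for LRP8, 0.53 ± 0.15 for PLA2G4A and 0.42 ± 0.13 for VLDLR (± SE); that of VLDLR was lost without DHN-A 3 (adjusted p = 0.1095, and 0.0144 with all libraries). SCD, PLA2G4A and VLDLR were named for being called in DHN-A against NC-A, which is part of this term, and LRP8 after its values were seen, so these values are no independent evidence either. Of all tested genes, 25.7% passed in this interaction with either sign. The share for each sign is not given here, so the list counts by sign cannot be judged against that figure.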

How the results depend on the processing

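The number of members called was 1 to 2 over the left-out libraries in DHN against NC, 2 to 2 in DHN-A against DHN, 0 to 1 in NC-A against NC, 0 to 0 in DHN-A against NC-A, 0 to 1 in DHN-A against NC and 1 to 1 in the interaction. With no filter on low counts it was 1 in DHN against NC. The log2 change of MYLIP in DHN-A against NC-A was 0.408 to 0.821 over the left-out libraries and was not called in any of its 17 alternatives. DESeq2 gave no adjusted p for it. The deviations of same-numbered libraries from their group means had correlations of -0.18 to 0.23, over 0.1 in 1 of 18 pairs. These values cannot tell whether libraries of the same number were handled together, which the labels do not state. With the replicate number as a block, the fit called 2, 2, 1, 0, 0 and 1 members in the 6 comparisons, with MYLIP at 0.636 in DHN-A against NC-A and 6805 genes called in DHN against NC. Signs turned for values near 0. LPCAT3 in DHN against NC was -0.00103 with relative log expression factors, -0.0435 with limma-voom, -0.0212 with no filter, -0.000166 with the block, -0.0144 with only the groups compared, and -0.0966 to 0.168 with a library left out. MYLIP in NC-A against NC was 0.00964 with limma-voom and -0.31 to 0.168 with a library left out. ABCA1 in DHN-A against NC-A was -0.000430 with limma-voom and -0.0522 to 0.0654 with a library left out, and NR1H2 in the interaction was 0.0145 with no filter. Left-out libraries also gave LPCAT3 -0.0658 to 0.199 in DHN-A against DHN, -0.0176 to 0.185 in NC-A against NC, -0.0837 to 0.119 in DHN-A against NC-A and -0.136 to 0.128 in the interaction, SREBF1 -0.00611 to 0.0442 in DHN-A against DHN, NR1H3 -0.196 to 0.137 in the interaction and PLA2G4A -0.0983 to 0.0103 in DHN against NC. The cause of these turns was not tested. Low counts of MYLIP outside DHN, and of ABCG1 everywhere, limit what can be seen.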
